A study of Mus musculus with 10 samples.

Results

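The unconventional myosin genes of the hair bundle were followed across bulk RNA-seq libraries from handpicked cells of the mouse cochlea. The members were the rows listed under the symbols Myo7a, Myo6, Myo15, Myo3a, Myo3b, Myo1c, Myo5a and Myo10, which are 8 of the 34590 genes in each count table, and all 8 were listed and passed the filter on low counts. There were 5 cell types with 2 libraries each. Supporting cells (SCs) came from mice with Fgfr3iCreER+ and the tdTomato+ reporter that Cre switches on (Rosa26-CAG-loxP-stop-loxP), at postnatal day (P) 27 (library 12) and P26 (library 11). Converted hair cells (cHCs, P33, libraries 13 and 16) came from mice that carried the same Cre and reporter together with Atoh1-HA+ and alpha9 AChR-EGFP+, so that Atoh1, the transcription factor that starts hair cell differentiation, was switched on in SCs by tamoxifen, and cells with both colours were picked. Neonatal outer hair cells, OHCs (P7), libraries 15 and 14, are labelled as prestin-YFP knock-in (YFP/+), whereas the study's sample scheme gives a prestin-driven inducible Cre with tdTomato. Mature outer hair cells, OHCs (P22), came from prestin-YFP knock-in mice (YFP/+) with labelled ages of 21 and 22 days, and inner hair cells (IHCs) from Pval-Cre+; tdTomato+ mice at 74 and 75 days, and the libraries of these cell types are named below by those days (21 d, 22 d, 74 d, 75 d). The study's sample scheme lists tamoxifen injections for the SC, cHC and OHC (P7) mice, and none for the OHC (P22) and IHC mice. Fgfr3-driven Cre is active in Deiters' and pillar cells, the reporters mark cells that were then pooled, and the cHCs carried a transgene in which Atoh1-HA runs from a constitutive promoter.

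Unconventional myosins are motors that move along actin filaments, and the stereocilia of a hair cell are parallel actin filaments whose growing ends sit at the tips. Most of these motors walk towards the tips and carry cargo there, whereas Myo6 walks the opposite way and is found at the stereocilia bases and in the cuticular plate. Loss of Myo7a, Myo6, Myo15 or Myo3a function is a known cause of deafness.

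All 8 genes are protein coding in the GENCODE annotation of mm9, the build to which the reads had been mapped. Myo7a lies at chr7:105199570-105268034 on the minus strand. The others are on the plus strand: Myo6 at chr9:80012838-80159536, Myo15 at chr11:60282841-60341871, Myo3a at chr2:22149130-22473772, Myo3b at chr2:69877183-70267255, Myo1c at chr11:75464006-75488134, Myo5a at chr9:74918822-75071495 and Myo10 at chr15:25552280-25743428. Their merged exons sum to between 7093 bases (Myo3b) and 14803 bases (Myo5a). The span of Myo3b also holds Gm13631 on the same strand, with at most 53 counts in a library (cHC 16), and the span of Myo3a holds 4 genes on the other strand, of which Gm13340 had up to 28787 counts in a library (OHC (P22) 21 d). Whether reads were counted by strand is not given in the sources used here, so reads shared with these genes cannot be told apart. In SCs 12 and 11, Gm13340 had 7372 and 10553 counts where Myo3a had 12 and 7.

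Promoters were read for the members because 5 of them were higher in converted cells in which a basic helix-loop-helix factor, Atoh1, had been switched on, and such factors bind E-boxes (CANNTG, which reads the same on both strands). The windows hold the 250 bases before a RefSeq start in GRCm38.p6, printed 5′ to 3′ along the gene's strand, with E-boxes in capitals. They are shown for Myo15, which had 2 E-boxes, for Myo6 and Myo3a, whose levels were most alike, and for Myo3b, which was read in some hair cell types and not in others.
Myo15 (chr11:60469089-60469338, plus strand): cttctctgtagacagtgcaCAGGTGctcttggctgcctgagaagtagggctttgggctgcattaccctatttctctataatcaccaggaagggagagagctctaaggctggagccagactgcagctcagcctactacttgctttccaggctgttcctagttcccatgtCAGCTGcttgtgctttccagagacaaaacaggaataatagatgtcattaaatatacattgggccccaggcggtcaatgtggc
Myo6 (chr9:80164784-80165033, plus strand): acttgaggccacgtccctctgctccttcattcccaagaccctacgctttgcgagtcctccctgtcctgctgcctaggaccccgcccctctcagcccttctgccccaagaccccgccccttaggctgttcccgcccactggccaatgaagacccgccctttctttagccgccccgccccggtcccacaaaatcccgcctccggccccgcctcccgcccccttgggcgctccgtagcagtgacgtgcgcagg
Myo3a (chr2:22227253-22227502, plus strand): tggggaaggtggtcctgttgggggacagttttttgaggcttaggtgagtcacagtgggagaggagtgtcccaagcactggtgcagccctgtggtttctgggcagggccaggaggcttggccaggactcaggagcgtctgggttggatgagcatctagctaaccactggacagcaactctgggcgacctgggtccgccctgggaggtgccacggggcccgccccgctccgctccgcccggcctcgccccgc
Myo3b (chr2:70038876-70039125, plus strand): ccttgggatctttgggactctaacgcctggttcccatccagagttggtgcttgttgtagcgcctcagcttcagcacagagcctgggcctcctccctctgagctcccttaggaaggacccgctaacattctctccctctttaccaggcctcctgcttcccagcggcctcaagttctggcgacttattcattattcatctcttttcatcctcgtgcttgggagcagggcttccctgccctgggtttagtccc
One of the Myo15 E-boxes was CAGCTG, a form held by 12.8% of the 27025 promoters of this length (1 per gene), while 66% of them held an E-box of any form. No E-box was in the windows of Myo6, Myo3a, Myo3b, Myo5a or Myo10, in the first of the Myo7a windows or in 2 of the 3 Myo1c windows. The second Myo7a window had 2 E-boxes and the second Myo1c window had 1. The form CAGATG or CATCTG, held by 14.5% of promoters and a subset of the E-boxes, was found among the members only in that Myo1c window.

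Gene counts totalled 15016129 to 40518766 per library, and 3 counts corresponded to 0.0762 to 0.264 CPM (counts scaled to library size with TMM factors). The TMM factor of the OHC (P22) library of 21 d was 0.583, against 0.93 to 1.2 in the other 9 libraries. SCs, cHCs and OHCs (P7) carry library numbers 11 to 16, while OHCs (P22) and IHCs carry numbers of another series, and what separates cell types across the series cannot be told apart from what separates the series. The count file attached to 4 of the 10 records is named for another sample, and each file was assigned by the sample in its name, as described with the processing. Hair cell markers (Pou4f3, Gfi1, Pvalb, Chrna9, Chrna10, Rasd2 and Otof) summed to 3.91 to 13.3 CPM in SCs, 2127 to 2997 CPM in cHCs and at least 2676 CPM in the native hair cells. In IHCs, 5010 and 4216 CPM of that sum were Otof, Chrna9 was at 7.14 and 17.8 CPM and Chrna10 at 11.5 and 8.39 CPM. Rasd2 had 0 counts in IHCs and was at 0.176 and 5.31 CPM in OHCs (P22). Pou4f3 was at 235 to 560 CPM in every hair cell library. SC markers (Sox2, Sox9, Fgfr3, Gjb2, Hes1, Jag1 and Cdkn1b) summed to 1398 to 1863 CPM in SCs, 584 to 913 in cHCs, 110 to 268 in OHCs (P7), 8.97 to 9.79 in OHCs (P22), with Sox2 at 0, and 631 to 819 in IHCs. The OHC markers Slc26a5 and Ocm summed to 4255 to 12027 CPM in OHCs and at most 241 CPM elsewhere, and the IHC marker Slc17a8 was at 1763 to 1907 CPM in IHCs and at most 75.5 CPM elsewhere. Slc26a5 (prestin), Chrna9 (alpha9 AChR), Fgfr3 and Pvalb are the genes behind the reporters or Cre by which cells were picked. Their levels are thus no independent check of cell identity. Of the lists for other cells, neuronal markers reached 771 CPM (IHCs), glial 224 (SCs), immune 17 (SCs), fibroblast 382 (an OHC (P7) library), endothelial 2.08 (OHCs (P7)) and erythrocyte 24.5 (IHCs). Of the neuronal markers, Snap25 was at 125 to 361 CPM and Nefm at 39.2 to 163 CPM in every hair cell library. Nefl reached 358 CPM (IHCs), Rbfox3 44.8 CPM (cHCs) and Tubb3 1.68 CPM (OHCs (P22)). In these pooled cells, fewer cells of a type and less RNA per cell cannot be told apart.

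Myo7a, Myo6, Myo15, Myo3a and Myo3b were higher in cHCs than in SCs, and 4 of these 5 were higher than in SCs in both OHCs (P22) and IHCs. Myo3b was read in cHCs and OHCs (P7) and had 0 counts in OHCs (P22) and IHCs. Myo10 ran the other way and was lower in OHCs (P22) than in SCs. Myo1c and Myo5a did not pass the test in any comparison. A gene was called where edgeR's quasi-likelihood test gave a Benjamini-Hochberg FDR under 0.05 over the 16891 genes tested, in 1 model of all 10 libraries; with 2 libraries per cell type, this measures the spread between these libraries.

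**Figure D1:**
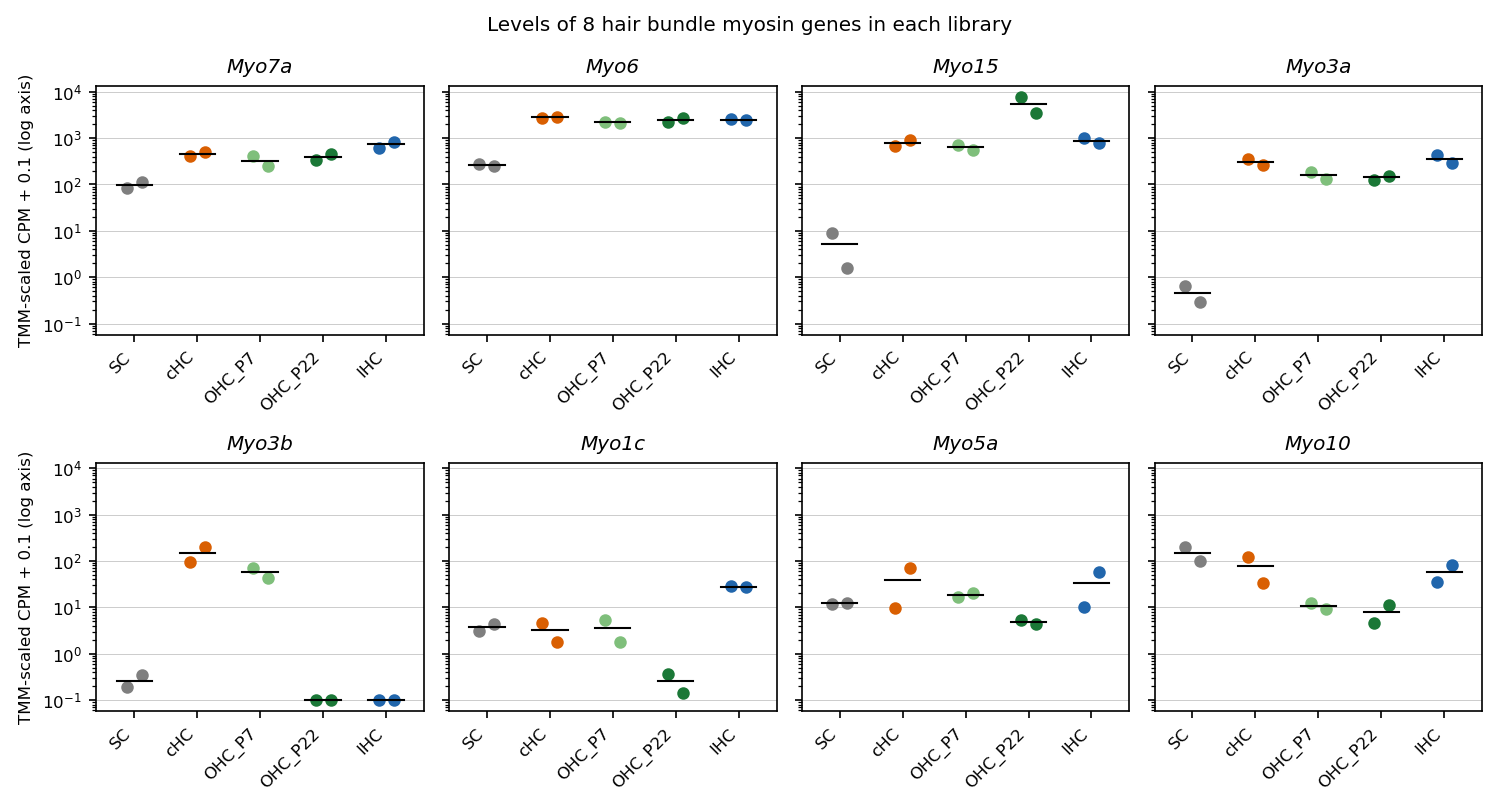
TMM-scaled CPM of the 8 genes, plus 0.1, on a log axis, with a point for each library and a line at the mean of the 2 libraries of a cell type. Myo6 ran from 2144 to 2861 CPM in every hair cell library, Myo15 stood highest in OHCs (P22), and Myo3b was at 0 in OHCs (P22) and IHCs.

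The class III myosins, Myo3a and Myo3b, carry a kinase domain and take espin proteins to stereocilia tips. Myo3a was read at 0.533 and 0.186 CPM in SC libraries 12 and 11 (12 and 7 counts), at 358 and 260 CPM in cHCs 13 and 16, at 187 and 130 CPM in OHCs (P7) 15 and 14, at 127 and 156 CPM in OHCs (P22) of 21 and 22 d, and at 442 and 285 CPM in IHCs of 74 and 75 d. Every hair cell library was thus far above both SC libraries, while the ranges of cHCs and IHCs overlapped, as did those of the OHCs at P7 and P22. Myo3a was higher than in SCs by 9.77 on the log2 scale in cHCs (SE 0.83, FDR = 9.35e-05), by 8.81 in OHCs (P7) (SE 0.80, FDR = 0.000121), by 8.65 in OHCs (P22) (SE 0.79, FDR = 0.000111) and by 10.01 in IHCs (SE 0.83, FDR = 7.68e-05). The order of the means was IHCs (364 CPM ± 111, SD, n = 2), cHCs (309 ± 69.1), OHCs (P7) (158 ± 40.5), OHCs (P22) (142 ± 20.4) and SCs (0.359 ± 0.245), and no pair of hair cell types passed the test. The nearest to it was IHCs against OHCs (P22), 2.57-fold higher in means and 1.36 on the log2 scale (SE 0.57, FDR = 0.294).

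Myo3b differed from its paralogue within the hair cells. It had 2 and 9 counts in SCs (0.0888 and 0.239 CPM), stood at 96.6 and 203 CPM in cHCs 13 and 16 and at 70.5 and 42.9 CPM in OHCs (P7) 15 and 14, and had 0 counts in all 4 libraries of OHCs (P22) and IHCs. A count of 0 allows up to 3 counts, which is 0.264 and 0.126 CPM in OHCs (P22) of 21 and 22 d and 0.101 and 0.103 CPM in IHCs of 74 and 75 d. Both cHC libraries lay above both OHC (P7) libraries, and all 4 lay above the SC libraries. Pooled counts were 893-fold higher in cHCs than in SCs (exact 95% interval 499 to 1789, counting error only; FDR = 0.0052) and 278-fold higher in OHCs (P7) than in SCs (155 to 558; FDR = 0.00716).

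Against the floor of 3 counts in the shallower library, Myo3b was at least 566-fold higher in cHCs than in OHCs (P22) (edgeR FDR = 0.00511) and at least 1453-fold higher than in IHCs (FDR = 0.00602). OHCs (P7) were at least 214-fold higher than OHCs (P22) (FDR = 0.0188) and at least 550-fold higher than IHCs (FDR = 0.0149). Between OHCs (P7) and cHCs the log2 difference was -1.40 (SE 0.90, FDR = 0.591), a 2.64-fold lower mean that was not distinguished from the spread. SCs, OHCs (P22) and IHCs were at or near the floor and are not ordered. Each of these 4 comparisons with cell types at 0 ran across the library number series, and that of OHCs (P22) with OHCs (P7) was not called without the OHC (P22) library of 21 d (FDR = 0.0526) or with only the 4 libraries compared in the fit (FDR = 0.0824).

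Myo15 carries whirlin and Eps8 to stereocilia tips and is needed for stereocilia to lengthen. It was read at 8.71 and 1.46 CPM in SCs 12 and 11, at 670 and 929 CPM in cHCs 13 and 16, at 724 and 553 CPM in OHCs (P7) 15 and 14, at 7601 and 3470 CPM in OHCs (P22) of 21 and 22 d, and at 988 and 768 CPM in IHCs of 74 and 75 d. Both OHC (P22) libraries stood above all other libraries, and the ranges of cHCs overlapped with those of OHCs (P7) and of IHCs. In OHCs (P22), Myo15 was 1089-fold higher than in SCs in means and 10.09 on the log2 scale (SE 0.98, FDR = 0.000162). It was also higher than in SCs by 7.30 in cHCs (SE 0.87, FDR = 0.00119), by 6.98 in OHCs (P7) (SE 0.86, FDR = 0.00109) and by 7.44 in IHCs (SE 0.88, FDR = 0.000958), calls that limma-voom did not make (FDR = 0.133, 0.139 and 0.123).

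Among the hair cells, the mean of Myo15 in OHCs (P22) was 6.93-fold that of cHCs, with a log2 difference of 2.79 (SE 0.71) that missed the threshold (FDR = 0.0605). It was 8.67-fold that of OHCs (P7) (3.12 on the log2 scale, SE 0.72, FDR = 0.0942), and IHCs were lower than OHCs (P22) by 2.66 (SE 0.70, FDR = 0.104). These 3 differences passed with DESeq2 (FDR = 0.00737, 0.00294 and 0.0127) and with limma-voom (FDR = 0.00933, 0.0289 and 0.0241). Without TMM factors the OHC (P22) libraries stood at 4425 and 3856 CPM, and without the 21 d library the log2 difference from cHCs was 2.08 (FDR = 0.264). Of the 10 fits that each left out 1 library, 7, 7 and 5 called these differences. The order of the means was OHCs (P22) (5536 CPM ± 2921, SD, n = 2), IHCs (878 ± 156), cHCs (799 ± 183), OHCs (P7) (639 ± 121) and SCs (5.08 ± 5.12), with no difference called between neighbours apart from that of OHCs (P7) and SCs.

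Myo7a, the motor of Usher syndrome type 1B, is found with harmonin and Sans near the upper end of the tip link. It was read at 82.9 and 112 CPM in SCs 12 and 11, at 405 and 504 CPM in cHCs 13 and 16, at 407 and 251 CPM in OHCs (P7) 15 and 14, at 332 and 464 CPM in OHCs (P22) of 21 and 22 d, and at 621 and 841 CPM in IHCs of 74 and 75 d. Both IHC libraries were above all others and both SC libraries below all others, and the other 3 cell types overlapped. Myo7a was higher than in SCs by 2.91 on the log2 scale in IHCs (SE 0.48, FDR = 0.00842), by 2.22 in cHCs (SE 0.47, FDR = 0.0392) and by 2.03 in OHCs (P22) (SE 0.47, FDR = 0.0229). In OHCs (P7) the difference was 1.76 (SE 0.46, FDR = 0.0686). The means ran from IHCs (731 CPM ± 155, SD, n = 2) through cHCs (454 ± 69.4), OHCs (P22) (398 ± 92.9) and OHCs (P7) (329 ± 111) to SCs (97.3 ± 20.3), and no pair of hair cell types differed by the test, the largest gap being 1.15 between IHCs and OHCs (P7) (SE 0.46, FDR = 0.37).

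The Myo7a calls of cHCs and OHCs (P22) were near the threshold. That of cHCs was not made without SC library 12 (FDR = 0.2), SC 11 (0.0933), cHC 16 (0.167), OHC (P7) 15 (0.0507) or IHC 75 d (0.051), and that of OHCs (P22) was not made without SC 12 (0.111), SC 11 (0.052) or OHC (P22) 22 d (0.0511). The call of IHCs was made without any other single library but not without SC 12 (0.0515). With only the 4 libraries compared in the fit, the FDR was 0.118 in cHCs and 0.105 in OHCs (P22). The log2 differences stayed between 2.02 and 2.45, between 1.77 and 2.26 and between 2.67 and 3.14, respectively, when 1 library was left out.

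Myo1c, a candidate motor for the adaptation of transduction, was low. It was read at 2.98 and 4.25 CPM in SCs 12 and 11, at 4.51 and 1.7 CPM in cHCs 13 and 16, at 5.30 and 1.69 CPM in OHCs (P7) 15 and 14, at 0.264 and 0.0421 CPM in OHCs (P22) of 21 and 22 d (3 and 1 counts), and at 28.7 and 26.8 CPM in IHCs of 74 and 75 d. IHCs lay above all other libraries and OHCs (P22) below all others, with SCs, cHCs and OHCs (P7) overlapping between them. Pooled counts in IHCs were 243-fold those of OHCs (P22) (exact 95% interval 94.9 to 894, counting error only), within 1 library number series, but the test across libraries was not passed (log2 difference 7.54, SE 2.03, FDR = 0.109). DESeq2 gave an FDR of 3.41e-06 and limma-voom 0.0306 for this difference. The order of the means was IHCs (27.7 CPM ± 1.31, SD, n = 2), SCs (3.61 ± 0.901), OHCs (P7) (3.50 ± 2.55), cHCs (3.11 ± 1.99) and OHCs (P22) (0.153 ± 0.157), with no neighbours that differed by the test.

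Myo6 anchors stereocilia at their bases and was the most even member among hair cells. It was read at 277 and 246 CPM in SCs 12 and 11, at 2775 and 2861 CPM in cHCs 13 and 16, at 2257 and 2144 CPM in OHCs (P7) 15 and 14, at 2177 and 2658 CPM in OHCs (P22) of 21 and 22 d, and at 2604 and 2426 CPM in IHCs of 74 and 75 d. Both cHC libraries were above all native hair cell libraries, and both SC libraries were below all others. Myo6 was higher than in SCs by 3.43 on the log2 scale in cHCs (SE 0.34, FDR = 0.000327), by 3.07 in OHCs (P7) (SE 0.34, FDR = 0.000472), by 3.21 in OHCs (P22) (SE 0.34, FDR = 0.00028) and by 3.27 in IHCs (SE 0.34, FDR = 0.000405). These are 8.42-fold to 10.8-fold differences in means. The means of cHCs (2818 CPM ± 60.9, SD, n = 2), IHCs (2515 ± 126), OHCs (P22) (2418 ± 340) and OHCs (P7) (2201 ± 80.2) did not differ by the test, the largest log2 difference being -0.36 for OHCs (P7) against cHCs (SE 0.31, FDR = 0.738), and SCs were at 261 ± 22.2. In SCs, Myo6 and Myo7a were thus read at 246 to 277 and 82.9 to 112 CPM, where the 7 hair cell markers together summed to at most 13.3 CPM.

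Myo10 builds filopodia and moves to their tips. It was read at 201 and 98.0 CPM in SCs 12 and 11, at 124 and 32.8 CPM in cHCs 13 and 16, at 12.4 and 8.89 CPM in OHCs (P7) 15 and 14, at 4.58 and 11.2 CPM in OHCs (P22) of 21 and 22 d, and at 34.6 and 83.3 CPM in IHCs of 74 and 75 d. SCs and cHCs overlapped, both IHC libraries lay within the range of cHCs and below both SC libraries, and all 4 OHC libraries were below the other 6. Against SCs, OHCs (P22) were lower by 4.24 on the log2 scale (SE 0.98, FDR = 0.0229), 18.9-fold in means, and OHCs (P7) differed by -3.81 (SE 0.96, FDR = 0.0562). The differences were -0.94 in cHCs (SE 0.86, FDR = 0.664) and -1.34 in IHCs (SE 0.87, FDR = 0.438). The call in OHCs (P22) was not made without SC library 12 (log2 difference -3.64, FDR = 0.0814), without the OHC (P22) library of 21 d (-3.80, FDR = 0.114) or by limma-voom (-4.07, FDR = 0.0906). The difference in OHCs (P7), not called here, was called by DESeq2 (-3.90, FDR = 0.000251), under all 3 other filters on low counts (FDR = 0.00422 to 0.0301), with only the libraries compared (FDR = 0.0466) and in 6 of the 10 fits without 1 library, and not by limma-voom (-3.70, FDR = 0.0797).

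The means of Myo10 followed SCs (149 CPM ± 72.8, SD, n = 2), cHCs (78.2 ± 64.2), IHCs (59.0 ± 34.4), OHCs (P7) (10.7 ± 2.49) and OHCs (P22) (7.89 ± 4.68), with no call between neighbours. The summed SC markers were likewise highest in SCs and lowest in OHCs (P22), with overlap between cHCs (584 to 913 CPM) and IHCs (631 to 819 CPM), and in IHCs 611 and 468 CPM of that sum were Gjb2. At 124 CPM of Myo10, cHC 13 had 30.9 CPM of Sox2 and 126 CPM of Sox9, and at 32.8 CPM cHC 16 had 6.93 and 16.0 CPM. In cHC 13 and 16, Gjb2 was at 83.4 and 1.73 CPM, Cdkn1b at 121 and 57.6, Jag1 at 80.9 and 60.4 and Hes1 at 12.7 and 9.75. Fgfr3 was the largest part of the sum in both, at 458 and 431 CPM, against 167 and 312 CPM in SCs 12 and 11. The part of SC transcripts in the level of Myo10 was not tested.

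Myo5a, which moves melanosomes and other vesicles along actin, was read at 11.9 and 12.2 CPM in SCs 12 and 11, at 9.49 and 69.2 CPM in cHCs 13 and 16, at 16.4 and 19.9 CPM in OHCs (P7) 15 and 14, at 5.29 and 4.38 CPM in OHCs (P22) of 21 and 22 d, and at 9.97 and 58.3 CPM in IHCs of 74 and 75 d. OHCs (P22) were below all other libraries, and the high values of cHCs and IHCs rested on 1 library each. The log2 differences from SCs were 1.71 in cHCs (SE 1.23, FDR = 0.552) and 1.5 in IHCs (SE 1.23, FDR = 0.556), which turned to -0.34 without cHC 16 and to -0.28 without IHC 75 d. The means were 39.3 CPM ± 42.2 (SD, n = 2) in cHCs, 34.1 ± 34.2 in IHCs, 18.2 ± 2.45 in OHCs (P7), 12.1 ± 0.272 in SCs and 4.83 ± 0.643 in OHCs (P22), with no call between neighbours.

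Counted over the members, cHCs against SCs had 5 of 8 genes higher, where 1.75% of all genes tested were higher, and 0 lower, where 0.0888% were lower, with 0 lower also at an unadjusted p under 0.05. For OHCs (P7) against SCs the counts were 4 higher (2.56% of all genes) and 0 lower (0.853%), with an unadjusted p under 0.05 for 5 higher and 1 lower. OHCs (P22) against SCs had 4 higher (4.01%) and 1 lower (4.0%), with an unadjusted p under 0.05 for 4 higher and 3 lower. IHCs against SCs had 4 higher (2.23%) and 0 lower (0.420%), with 1 lower at an unadjusted p under 0.05. In these 4 contrasts with SCs, DESeq2 called 5, 6, 6 and 4 members in either direction, where it called 10.5%, 15.9%, 24.6% and 13.6% of all genes. The counts by limma-voom were 4, 3, 4 and 3, where it called 6.31%, 6.94%, 11.2% and 6.23% of all genes. The 4 contrasts share the SC libraries. The median log2 difference of the members was 2.83 in cHCs, 2.42 in OHCs (P7), 0.36 in OHCs (P22) and 2.92 in IHCs, beside medians of 0.03, 0.00, 0.00 and 0.00 over all genes, and it was 2.03 in OHCs (P22) when Myo3b was left out, since it had no count there and its mean in SCs (0.164 CPM) was under the 3-count floor of the shallower OHC (P22) library (0.264 CPM). The test of any difference among the 5 cell types called 6 of the 8, all but Myo1c (FDR = 0.122) and Myo5a (FDR = 0.393), where 7.81% of all genes were called.

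Between hair cell types fewer members were called. OHCs (P7) against cHCs, within 1 library number series, had 0 higher (0.219% of all genes) and 0 lower (0.124%) by edgeR, with an unadjusted p under 0.05 for 1 gene, Myo10 (-2.87, SE 0.92, FDR = 0.296). DESeq2 called 1 member there (6.65% of all genes) and limma-voom 0 (2.24%). IHCs against OHCs (P22), within the other series, had 0 higher (0.977%) and 0 lower (0.485%), with 3 higher and 1 lower at an unadjusted p under 0.05. DESeq2 called 3 members there (12% of all genes) and limma-voom 2 (1.77%). The median log2 difference of the members was -0.72 for OHCs (P7) against cHCs, beside -0.09 over all genes, and 1.12 for IHCs against OHCs (P22), beside 0.03, or 1.36 without Myo3b, which was at 0 in both.

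Across the series, Myo3b was the only member called by edgeR in each of 4 contrasts. OHCs (P22) against cHCs had 0 higher (1.16%) and 1 lower (2.02%), with 1 higher and 4 lower at an unadjusted p under 0.05, and IHCs against cHCs had 0 higher (0.420%) and 1 lower (0.503%), with 0 higher and 1 lower. OHCs (P22) against OHCs (P7) had 0 higher (0.130%) and 1 lower (0.420%), with 1 higher and 2 lower, and IHCs against OHCs (P7) had 0 higher (0.130%) and 1 lower (0.249%), with 2 higher and 1 lower. DESeq2 called 4, 1, 3 and 1 members in these contrasts, where it called 16.1%, 8.16%, 9.66% and 7.86% of all genes. The counts by limma-voom were 2, 1, 2 and 1, beside 5.51%, 4.37%, 0.651% and 2.17% of all genes. The median log2 differences of the members were -2.08, -0.01, -0.30 and 1.03, beside -0.19, -0.05, -0.04 and 0.00 over all genes, and they were the same with Myo3b at its bound.

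Per kilobase of merged exon, which allows genes to be compared, the 8 genes summed to 61.1 and 50.5 FPKM in SCs 12 and 11, 468 and 506 in cHCs 13 and 16, 382 and 326 in OHCs (P7) 15 and 14, 883 and 631 in OHCs (P22) of 21 and 22 d, and 491 and 469 in IHCs of 74 and 75 d. Myo6 made up the largest share of this sum in 9 of the 10 libraries, from 44.9% to 70.1%. In the OHC (P22) library of 21 d, Myo15 led with 67.4% over 26.2% for Myo6, and in the 22 d library they were nearly even at 43.1% and 44.9%. Elsewhere among hair cells Myo15 made up 11.2% to 15.8%. In SCs, Myo10 made up 32.5% and 19.2%, against at most 2.61% in any hair cell library. This share also depends on the sum: Myo10 was at 12.2 FPKM in cHC 13 (sum 468) and at 9.68 FPKM in SC 11 (sum 50.5). The share of Myo3a and Myo3b together came from both genes in cHCs (9.64% and 2.91% in library 13, 6.47% and 5.65% in library 16) and OHCs (P7) (6.17% and 2.60% in library 15, 5.01% and 1.85% in library 14), and from Myo3a alone in OHCs (P22) (1.81% and 3.12%) and IHCs (11.3% and 7.65%).

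**Figure D2:**
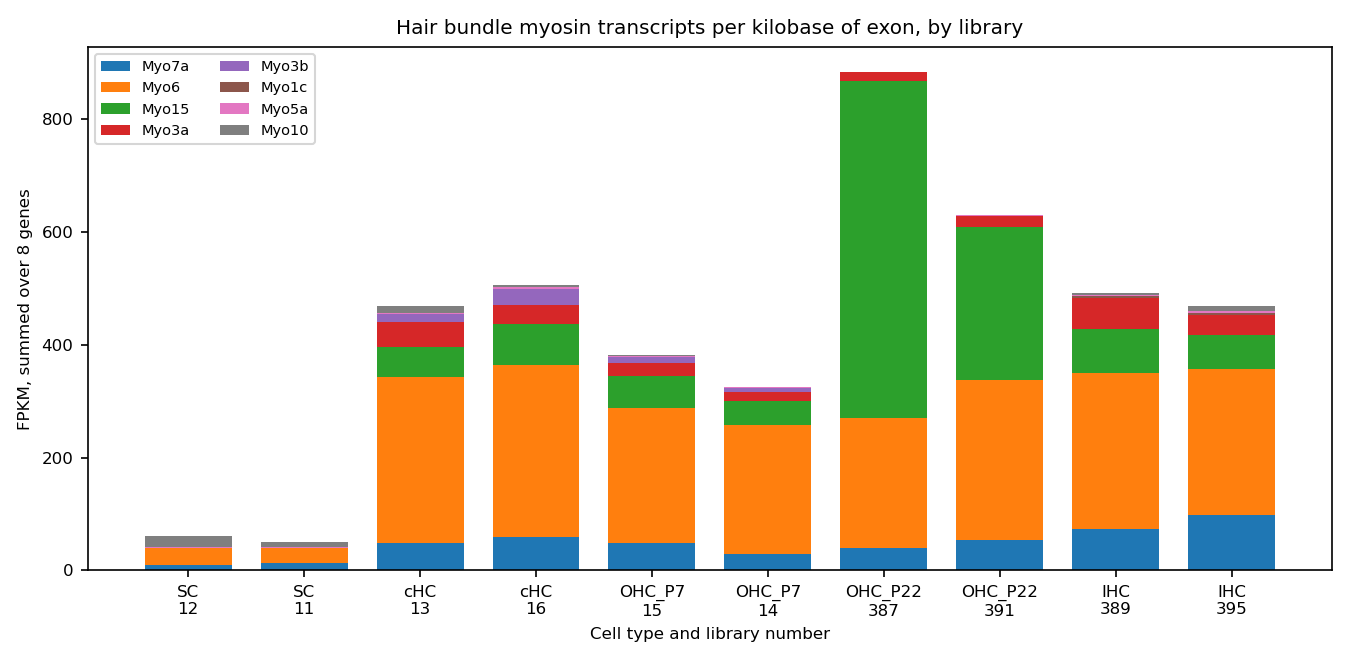
FPKM of the 8 genes stacked in each library, with cell types and library numbers along the axis. Sums were 50.5 to 61.1 in SCs and 326 to 883 in hair cells; the Myo15 segment was 596 and 272 FPKM in the OHC (P22) libraries of 21 and 22 d.

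Likeness was described by Pearson's r of log2(CPM + 2) over the 10 libraries, which share cell types and depth, among all genes tested. Myo6 and Myo3a were each other's closest gene (r = 0.987). Next to Myo6 came Xirp2 (0.984), an actin-binding repeat protein, and Pou4f3 (0.979), a hair cell transcription factor, and next to Myo3a came Tjap1 (0.971) and Xirp2 (0.970). Myo15 was closest to Invs (0.989), Dner and the stereocilia gene Loxhd1 (both 0.982). Closest to Myo3b were the chemokine Cxcl14 (0.998), the transcription factor Nhlh1 (0.997) and Rnf182 (0.995). For Myo7a the closest were Mynn (0.955), Hspa4l (0.954) and Cyld (0.946), for Myo1c Mrc2 (0.979), Fat4 (0.951) and Prkd1 (0.945), for Myo10 Cd24a (0.978), Dsp (0.970) and Ifi27l1 (0.969), and for Myo5a Gm12294 (0.920), Meig1 (0.914) and Ube2v2 (0.913). Among the members themselves, Myo10 ran against Myo15 (r = -0.71) and Myo6 (-0.55), and Myo3b was at 0.39 with Myo3a.

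Partners and cargoes of these motors were taken from a list of 17 genes (Whrn, Eps8, Gpsm2, Gnai3, Espn, Espnl, Ush1c, Ush1g, Cdh23, Pcdh15, Twf2, Ptprq, Clic5, Rdx, Tprn, Otof and Gipc1), all of which were tested. Otof belongs to the synapse and not to the bundle, and was also among the hair cell markers. Against SCs, 6 were higher in cHCs, 7 in OHCs (P7), 9 in OHCs (P22) and 5 in IHCs. Of all genes tested, 1.75%, 2.56%, 4.01% and 2.23% were higher in these contrasts. In OHCs (P22), 1 partner was lower than in SCs, where 4.0% of all genes were lower. The median log2 differences of the partners from SCs were 1.82, 2.17, 2.91 and 2.53, beside 0.03, 0.00, 0.00 and 0.00 over all genes. Ptprq, a phosphatase of the stereocilia surface, was at 3.38 and 3.05 CPM in SCs and between 1362 and 3849 CPM in every hair cell library, and was higher in cHCs by 8.77 on the log2 scale (SE 0.45, FDR = 1.25e-05). Otof, the calcium sensor of the hair cell synapse, was at 0.622 and 0.637 CPM in SCs, at 279 and 161 CPM in both cHCs and at 5010 and 4216 CPM in IHCs, and was higher in cHCs than in SCs by 8.44 (SE 0.54, FDR = 4.27e-05). Cdh23, the upper half-chain of the tip link, was higher in cHCs by 8.87 (SE 0.85, FDR = 0.000239) and Espn, an actin bundler and class III cargo, by 8.14 (SE 0.91, FDR = 0.000786).

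The partners described next were chosen after their values were seen. Espnl, the espin-like cargo of class III myosins, was at 0.622 and 0.877 CPM in SCs, 160 and 265 CPM in cHCs 13 and 16, 647 and 785 CPM in OHCs (P7) 15 and 14, 0 and 0.0421 CPM in OHCs (P22) of 21 and 22 d (0 and 1 counts), and 7.54 and 1.20 CPM in IHCs of 74 and 75 d. It thus stood high in the same 4 libraries as Myo3b, and IHCs were above both SC libraries. Pooled counts in cHCs were 7929-fold those of OHCs (P22) (exact 95% interval 1423 to 313210, counting error only; edgeR FDR = 0.00116), and IHCs differed from cHCs by -5.60 on the log2 scale (SE 0.90, FDR = 0.0159). Espnl was also the partner that was lower in OHCs (P22) than in SCs (FDR = 0.0407). Whrn, the Myo15 cargo whirlin, had 6 counts over both SC libraries and was at 1.74 and 13.4 CPM in cHCs, 26.8 and 19.8 CPM in OHCs (P7), 37.8 and 13.9 CPM in OHCs (P22) and 155 and 87.2 CPM in IHCs. Pooled Whrn counts were 90.6-fold higher in cHCs than in SCs (exact 95% interval 41.4 to 248; FDR = 0.0396). Ush1c, which encodes the Myo7a partner harmonin, was at 130 and 112 CPM in SCs, stood at 84.4 and 118 CPM in cHCs and at 1726 and 482 CPM in OHCs (P22), and was higher in OHCs (P22) than in cHCs by 3.45 (SE 0.63, FDR = 0.0143). Eps8, also a Myo15 cargo, lay between 12.3 and 97.5 CPM in all 10 libraries and was not called in cHCs against SCs (-0.77, SE 0.86, FDR = 0.735).

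Between hair cell types, edgeR called few partners, where it called 0.124% to 2.02% of all genes in each direction of a contrast. OHCs (P7) against cHCs had 1 higher (Otof, 2.31, SE 0.41, FDR = 0.0454) and 0 lower, and OHCs (P22) against cHCs had 1 higher (Ush1c) and 1 lower (Espnl). IHCs against cHCs had 1 higher (Otof, 4.39, SE 0.45, FDR = 0.00384) and 1 lower (Espnl), and IHCs against OHCs (P22) had 2 higher (Espnl, FDR = 0.0193, and Otof, 3.48, SE 0.43, FDR = 0.00413) and 0 lower. In OHCs (P22) and in IHCs against OHCs (P7), Espnl was the partner called, lower in both (FDR = 0.00225 and 0.0149). For OHCs (P7), OHCs (P22) and IHCs against cHCs, 5, 6 and 7 partners had an unadjusted p under 0.05. DESeq2 called 1, 4 and 5 partners there, and limma-voom 3, 4 and 2. Over all genes, DESeq2 called 6.65%, 16.1% and 8.16% in these contrasts, and limma-voom 2.24%, 5.51% and 4.37%. For OHCs (P22) and IHCs against OHCs (P7), 5 and 5 partners had an unadjusted p under 0.05. DESeq2 called 2 and 3 partners there (9.66% and 7.86% of all genes), and limma-voom 2 and 3 (0.651% and 2.17%). For IHCs against OHCs (P22), 4 partners had an unadjusted p under 0.05. DESeq2 called 2 partners there (12% of all genes) and limma-voom 1 (1.77%).

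**Figure D3:**
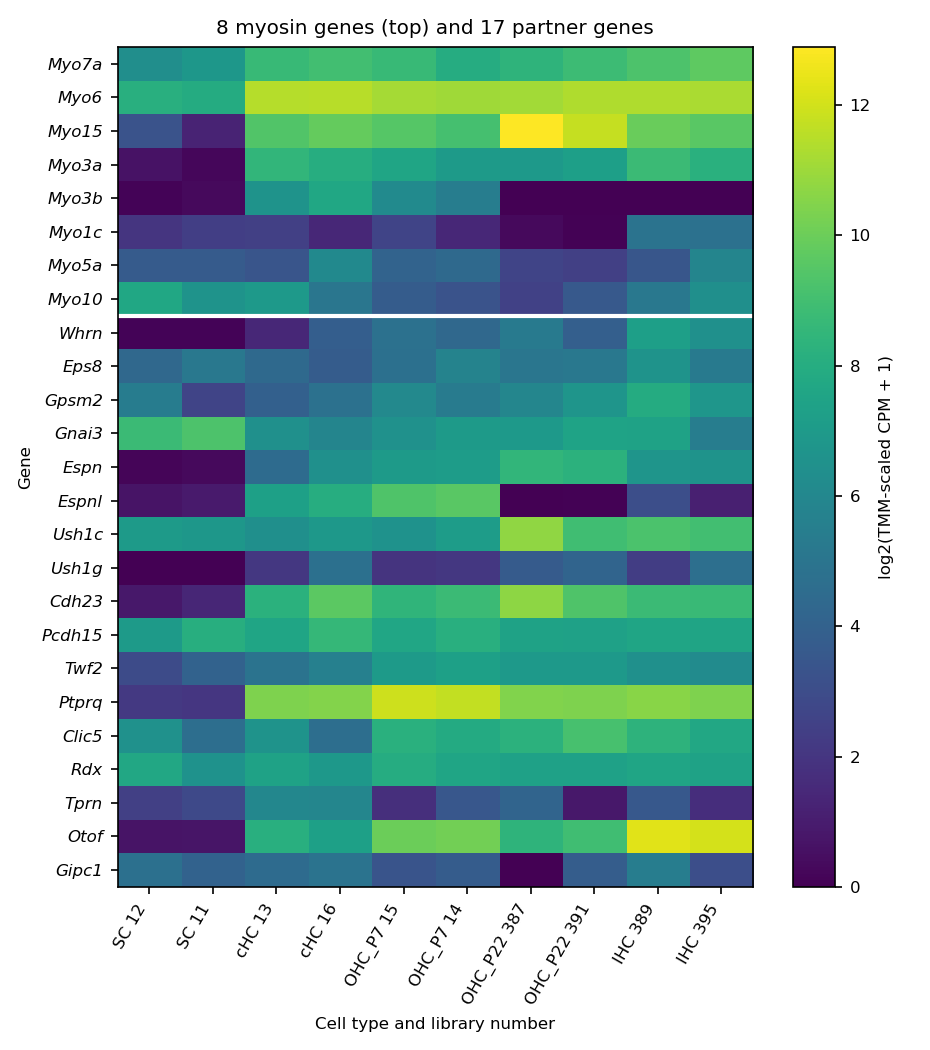
Levels of the 8 myosin genes (above the white line) and 17 partner genes as log2(TMM-scaled CPM + 1), in the 10 libraries in columns. The row of Espnl is high in cHCs and OHCs (P7) and near 0 in OHCs (P22), as is that of Myo3b, while Ptprq is above 1362 CPM in every hair cell library.

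Of the remaining unconventional myosins, 15 genes (Myo1a, Myo1d, Myo1e, Myo1f, Myo1g, Myo1h, Myo5b, Myo5c, Myo7b, Myo9a, Myo9b, Myo16, Myo18a, Myo18b and Myo19) were followed, and 12 passed the filter on low counts. By edgeR 0 of the 12 were called in any of the 10 contrasts, where 1 to 6 of them had an unadjusted p under 0.05, DESeq2 called 1 to 5 (6.65% to 24.6% of all genes) and limma-voom 0 to 3 (0.651% to 11.2%). Their median log2 differences from SCs were 0.86 in cHCs, 0.11 in OHCs (P7), -0.10 in OHCs (P22) and 0.05 in IHCs, and 0.86, 0.15, -0.05 and 0.37 with genes at 0 in a whole cell type set at their bound. Of 10 class II heavy chain, light chain and calmodulin genes tested (Myh9, Myh10, Myh14, Myl6, Myl9, Myl12a, Myl12b, Mylk, Calm2 and Calm3), Calm2, a calmodulin gene named after its values were seen, was read at 1096 and 900 CPM in SCs and at 7316 and 6943 CPM in IHCs. It was higher than in SCs in OHCs (P7) (1.80 on the log2 scale, SE 0.32, FDR = 0.012) and IHCs (2.84, SE 0.34, FDR = 0.000968), and was not called in cHCs (0.01, SE 0.32, FDR = 1). It was also higher in IHCs than in cHCs (2.83, SE 0.34, FDR = 0.00594) and in OHCs (P22) (2.05, SE 0.33, FDR = 0.0161). By edgeR no other gene of these 10 was called in any contrast. DESeq2 called 0 to 3 of the 10 (6.65% to 24.6% of all genes) and limma-voom 0 to 2 (0.651% to 11.2%).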

How the data were processed

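Bulk RNA-seq of handpicked cells from 5 cochlear cell types was analysed, with 2 libraries of each; the study calls them biological duplicates. cDNA had been amplified at constant temperature from single primers (SPIA); per the labels and the study's methods, the authors used CASAVA 1.7, Cutadapt, STAR and BWA for reads mapped to mm9 and HTSeq for counting. They deposited raw counts per gene symbol, without normalization. Counts without a gene were left out of library sizes; reads on no feature were 26.5% to 50.4% of the reads per library. The files of 4 records are named for another sample. Each file was assigned by the sample in its name, and all 10 then matched the CPM column of their library number in the study's table.

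Counts were tested with edgeR 4.0.16 (R 4.3.3): TMM factors, filterByExpr by cell type, 1 model of all 10 libraries and 2-sided quasi-likelihood F-tests, with Benjamini-Hochberg adjustment over 16891 genes at 0.05. The common dispersion was 1.12. The standard error was the log2 fold change divided by the square root of F. CPM were scaled by TMM factors, and FPKM used merged exon lengths of GENCODE M1. Intervals and floors (3 counts) cover counting error only. A fold against a cell type at 0 is a bound against 3 counts in its shallower library. The alternatives were DESeq2 1.42.0 (no independent filtering or outlier handling), limma 3.58.1 with voom, RLE factors, 3 filters, the files as attached to the records, each library left out and a fit of the compared libraries. Tests were tried on simulated counts. Levels and figures used Python 3.11.15, pandas 2.3.3, scipy 1.17.1 and matplotlib 3.10.9.

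The named genes are the 8 members, at most 4 of each of the 3 lists by smallest FDR among those past it for cHCs or OHCs (P22) against SCs or each other, and the 3 genes most like each member; further partners and Calm2 were named after their values were seen, and members and lists were chosen with earlier results of these data known. Promoters came from RefSeq (GRCm38.p6), where all 8 symbols matched, and are set beside no mm9 coordinate. Some genes of these families are not reported here. The single-cell data and the authors' comparisons were not used here.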

Additional observations from a re-analysis of the deposited data

How the results depend on the processing

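The members called changed with the tool and filter mainly between hair cell types. With DESeq2 the counts were 1 for OHCs (P7) against cHCs, 4 for OHCs (P22) against cHCs, 3 for OHCs (P22) against OHCs (P7) and 3 for IHCs against OHCs (P22). With limma-voom the last 3 of these were 2, 2 and 2, and without a filter they were 3, 2 and 2. A minimum of 10 counts in every library, which leaves 5 members, gave 3 for cHCs against SCs, 2 for OHCs (P22) against cHCs, 0 for IHCs against cHCs and 0 for IHCs against OHCs (P7). More than 35 CPM in at least 2 libraries gave 3 for OHCs (P22) against cHCs, and fitting only the compared libraries gave 0 for OHCs (P22) against OHCs (P7). With the files as attached to the records, 0 members were called in every comparison and in the test over all cell types, and 4 log2 differences changed sign: Myo6, Myo3a and Myo3b in cHCs against SCs (-0.29, -0.94 and -0.45) and Myo3a in OHCs (P22) against SCs (-0.34). Leaving out 1 library gave 3 (without SC 12) to 5 members for OHCs (P22) against SCs, 1 to 2 for OHCs (P22) against cHCs, 0 (without OHC (P22) 21 d) to 2 for OHCs (P22) against OHCs (P7) and 0 to 1 for IHCs against OHCs (P22). The causes of these changes were not tested. All other counts of called members were within 1.5 times the reported ones. RLE factors changed no call among the 40 log2 differences with an unadjusted p under 0.05. No paired analysis was possible because each cell type was taken at ages that no other cell type shares, so the cell types share no mouse. Depth limits Myo3b and Myo1c in OHCs (P22), where 3 counts are up to 0.264 CPM.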
